A study of Saccharomyces cerevisiae with 24 samples.

Results

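Glycogen is the branched glucose polymer that Saccharomyces cerevisiae stores as nutrients run out. The genes described here encode enzymes that make it and break it down, and Gac1, which acts on glycogen synthase through a phosphatase. The set was fixed by name, from the gene names in the deposited table, as PGM2, UGP1, GLG1, GLG2, GSY1, GSY2, GLC3, GAC1, GPH1 and GDB1. All 10 were found among the 7121 rows that name a gene, and all 10 passed the filter on low values (TPM, a length-scaled share of the transcripts in a library, had to reach 1 in at least 3 libraries). The study sequenced polyadenylated RNA from 4 genotypes in 2 growth states, with 3 biological replicates in each of the 8 groups and 24 libraries in all. The genotypes were WT (strain JPY10H3), hsh49::Q24P (JPY2863), nam8D (JPY28H5) and mud1D (JPY28A8), each a single strain of BY background, so that a genotype cannot be told apart from its strain. Cells grew in synthetic medium with 2% glucose, histidine, leucine, uracil and lysine, and were taken in log phase or in the starvation phase at 48 h. NAM8, MUD1 and HSH49 encode components of the spliceosome: Nam8 and Mud1 belong to the U1 particle and Hsh49 to the U2 particle. The tor1 deletion strain that the series also names is not analysed here.

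Glucose 6-phosphate is turned into glucose 1-phosphate by phosphoglucomutase (Pgm2 is the main form) and then into UDP-glucose by Ugp1. Glycogenins (Glg1 and Glg2) attach the first glucose units to themselves, glycogen synthase (Gsy1 and Gsy2) lengthens the chain and the branching enzyme Glc3 adds branches. Gac1 brings the protein phosphatase Glc7 to glycogen synthase, which is active when dephosphorylated. Glycogen phosphorylase, Gph1, releases glucose 1-phosphate from chain ends, and the debranching enzyme Gdb1 removes the branches that stop it. Several of these genes are known targets of Msn2 and Msn4, factors that bind the stress response element AGGGG.

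None of the 10 coding sequences holds an intron in the RefSeq annotation of yeast genome release R64, and no other annotated gene overlaps one. The letters AGGGG, read on either strand, occurred at least once in the 500 bases before the start codon of 8 of the 10 genes (80%), against 2044 of 6000 coding genes (34.1%). At least 2 occurrences were found for 7 of the 10 (70%), against 488 of 6000 (8.13%). Of the related lists described further on, the trehalose and the hexose phosphate genes had shares like this, 5 of 7 (71.4%) in each. The phosphatase list had 1 of 5 (20%) and the regulators 4 of 23 (17.4%). PGM2 had 5 occurrences, UGP1 4, GLC3 3, and GSY1, GSY2, GPH1 and GLG2 had 2 each. GDB1 had 1. GLG1 and GAC1 had none in this window, which says only that these letters are not there. A match is a description of the sequence and not a binding site. In starved WT, PGM2 rose and GSY1 fell, while UGP1, GSY2 and GPH1 did not pass the test, as described further on. The stretches below are printed because these 5 genes share the motif but not this outcome. Each has 60 bases from R64, given 5′ to 3′ on the strand of its gene, with AGGGG or its complement CCCCT in capitals.
PGM2: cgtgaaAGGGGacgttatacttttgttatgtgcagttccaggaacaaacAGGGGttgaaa
UGP1: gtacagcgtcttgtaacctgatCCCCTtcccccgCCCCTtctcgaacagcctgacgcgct
GSY1: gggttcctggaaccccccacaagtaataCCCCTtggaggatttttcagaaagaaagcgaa
GSY2: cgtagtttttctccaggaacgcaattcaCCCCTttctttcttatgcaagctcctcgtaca
GPH1: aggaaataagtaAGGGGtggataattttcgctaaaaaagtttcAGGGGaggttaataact

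The PGM2 stretch lies at chrXIII:477812-477871 on the minus strand and ends 206 bases before the start codon. The UGP1 stretch lies at chrXI:369597-369656 on the plus strand and ends 235 bases before it. The GSY1 stretch is chrVI:176692-176751 on the minus strand, 301 bases before the start codon at its near end. The GSY2 stretch is chrXII:660492-660551 on the plus strand, with its near end 165 bases before the start codon. The GPH1 stretch is chrXVI:860937-860996 on the plus strand, with its near end 310 bases away. The UGP1 stretch overlaps the annotated gene AIM26, and no annotated gene overlaps the other 4; no measured value is placed by these coordinates.

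The table holds no counts, so the depth of the libraries is unknown. Precision rests on the 3 replicates of each group, pooled over the 8 groups. Replicates of a group correlated across genes at r between 0.978 and 0.996. NAM8 averaged 28.97 ± 2.73 TPM (SD, n = 3) in WT in log phase and 0.188 ± 0.12 in nam8D, and MUD1 averaged 38.14 ± 1.73 in WT and 2.908 ± 1.63 in mud1D, so the RNA matched both deletion labels. The level of HSH49 RNA cannot check the hsh49::Q24P label, since the change is in the protein. LEU2 was at 3979 to 5907 TPM in the 6 WT libraries and at or below 465.5 in the 18 mutant libraries, and URA3 was at or above 3.679 TPM in WT and at or below 0.4585 in the mutants. The hsh49::Q24P log libraries stood apart from the other mutant libraries, with LEU2 at 465.5, 117.6 and 63.03 TPM against 0.8276 to 30.84, and URA3 was above 0 in these 3 mutant libraries alone. Leaving out both hsh49::Q24P log libraries with most LEU2 changed no call among the 190 differences of the glycogen genes (10 genes in 19 comparisons). A difference between WT and a mutant therefore cannot be told apart from one between strains that differ at these markers. In some groups the replicates were far apart in the glycogen genes. The hsh49::Q24P starvation replicate 2 lay a median of 0.77 log2 units below its group mean in the 10 genes, against 0.081 below over all genes. The mud1D starvation libraries 1 and 3 lay 0.42 above and 0.45 below theirs, and the hsh49::Q24P log replicate 1 lay 0.42 below.

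**Figure D1:**
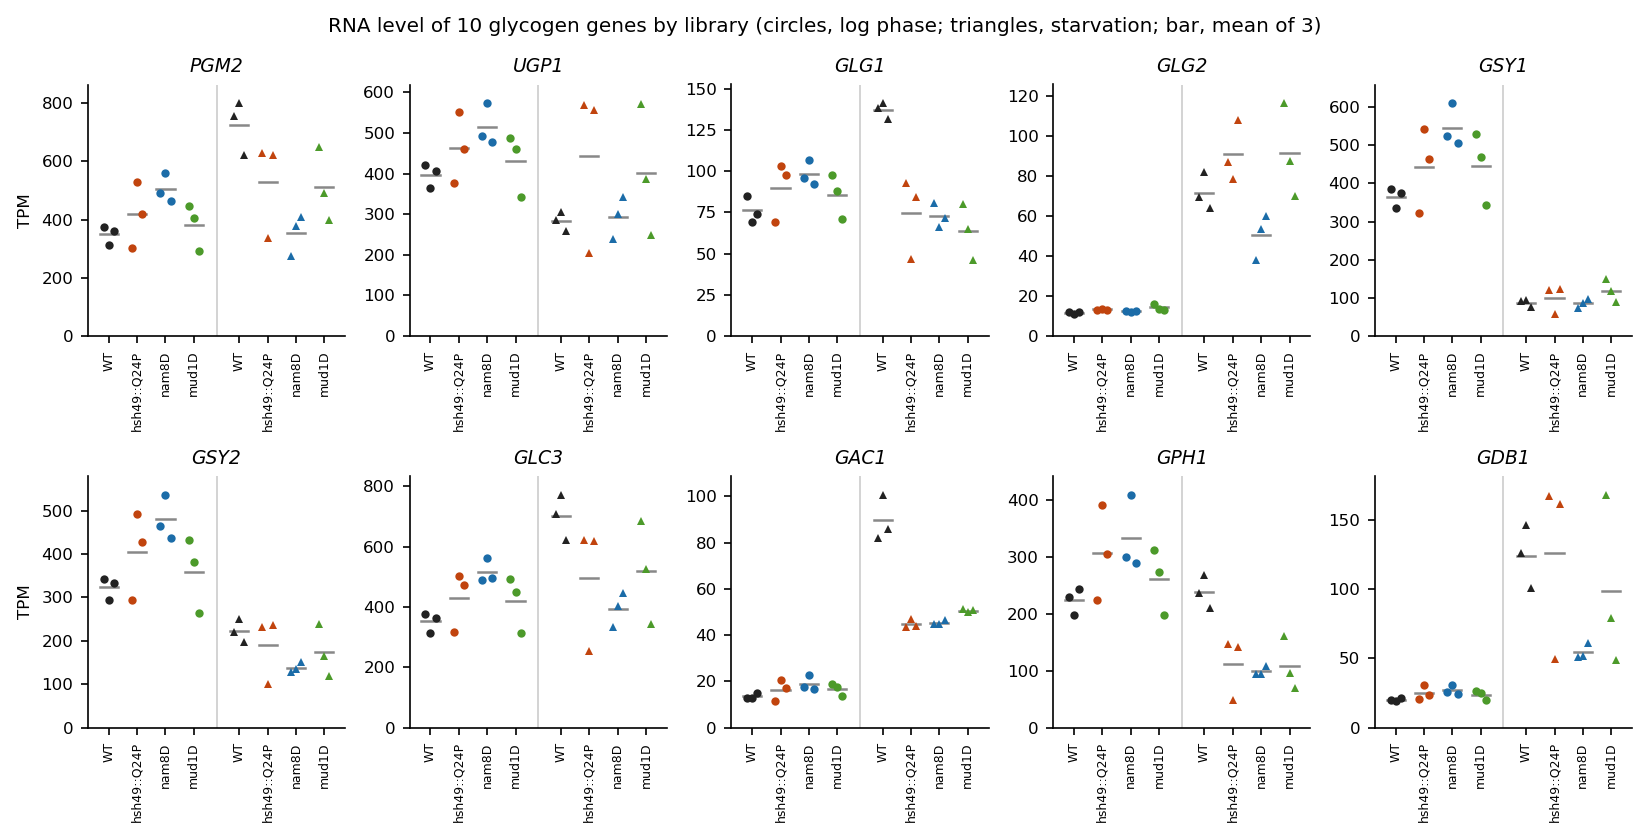
TPM of each of the 10 glycogen genes (y axes, linear from 0) in each of the 24 libraries, by genotype and growth state (x axis); each point is a library and each bar the mean of 3. GDB1, GLG2 and GAC1 are low in log phase and higher in every starved group, GSY1 is lower in every starved group, and starved hsh49::Q24P shows 1 library apart from the other 2 in most genes.

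Starvation against log phase in WT was the first comparison. In WT, GAC1, GDB1 and GLG2 rose 6.23-fold, 5.90-fold and 5.69-fold, PGM2 rose 2.07-fold and GSY1 fell 4.17-fold. GPH1, GSY2 and UGP1 did not pass the test. Each gene has 1 estimate of spread shared by all 8 groups, so tests within WT also carry the scatter of mutant libraries. GLC3 and GLG1 were higher by 0.99 and 0.84 on the log2 scale at adjusted p = 0.0035 and 0.0012 (limma), short of the log2 difference of 1 that a call also required. The 5 called genes of 10 compare with 35.2% of all 6449 genes tested, with 4 higher against a background of 26.2% and 1 lower against 9.01%. The median of the 10 differences was 0.92, and that of all genes tested was 0.47. At an unadjusted p under 0.05 (limma) there were 7 of the 10 genes and 5251 of the 6449 tested. How many of all genes had WT groups that did not overlap was not counted. In bulk RNA a change in the share of cells that express a gene and a change in RNA per cell cannot be told apart.

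PGM2 and UGP1 supply the glucosyl donor, and their responses were each tested on their own. PGM2 was at 375.2, 311.1 and 360.0 TPM in the WT log libraries and at 754.0, 799.9 and 621.1 in the starved ones. Every starved WT library was above every WT log library. The rise of 1.05 ± 0.24 (log2 difference ± SE, adjusted p = 0.000493 by limma) fell under the size required when WT log replicate 2 or WT starvation replicate 2 was left out (0.97 each). It was also smaller with library medians centred (0.57), with quantile normalization (0.75) and with spike-in scaling (0.75). UGP1 was at 420.4, 365.1 and 407.3 TPM in WT log phase and at 284.7, 305.3 and 258.2 in WT starvation. The WT groups did not overlap, but the difference of -0.49 (95% interval -1.13 to 0.14, adjusted p = 0.143, limma) did not pass. This interval rests on the spread within all 8 groups. UGP1 lay up to 0.127 log2 units from its group mean in WT libraries, and 0.967 below it in starved hsh49::Q24P replicate 2.

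In the mutants PGM2 did not rise by this test. Its starved values were 627.6, 335.0 and 620.7 TPM in hsh49::Q24P, 276.5, 377.6 and 408.7 in nam8D and 648.2, 491.7 and 398.5 in mud1D. Starved nam8D libraries were all below the lowest starved WT library, while hsh49::Q24P and mud1D each overlapped WT. The log2 differences from log phase were 0.32, -0.53 and 0.43, none of which passed. UGP1 ranged from 205.4 to 572.7 TPM over the 9 starved mutant libraries, and its difference passed the adjusted threshold in nam8D alone (-0.81, adjusted p = 0.0193, limma), under the size required. It was past that size with medians centred (-1.23) and with quantile normalization (-1.13).

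Of the 2 glycogenin genes, GLG2, the less abundant one in log phase, rose in all 4 genotypes, from 11.98, 11.20 and 11.87 TPM to 69.19, 81.67 and 63.80 in WT. Starved libraries held 78.30 to 107.6 TPM in hsh49::Q24P, 38.17 to 60.08 in nam8D and 70.08 to 116.2 in mud1D, and no log library of any genotype was above 16.15. The log2 rises were 2.51, 2.67, 1.93 and 2.57 with an SE of 0.162 each. GLG1 was at 85.26, 69.40 and 74.10 TPM in WT log phase and 138.5, 141.3 and 131.5 in WT starvation. In the starved mutants GLG1 was at 92.55, 46.75 and 84.40 TPM in hsh49::Q24P, 80.59, 66.20 and 71.88 in nam8D and 80.03, 64.84 and 46.28 in mud1D. All 9 of these values lay below the lowest starved WT value. Starved hsh49::Q24P and mud1D overlapped their own log-phase values, 69.34 to 103.0 and 70.77 to 98.0 TPM. Starved nam8D lay below its own log-phase values, 92.09 to 107.1 TPM. The log2 differences of GLG1 in the mutants were -0.31, -0.43 and -0.44, and none passed.

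Of the glycogen synthases, GSY1 fell in all 4 genotypes. In WT it went from 384.4, 335.3 and 374.1 TPM to 92.01, 93.48 and 75.19, and over all genotypes log libraries held 322.3 to 610.3 TPM and starved ones 57.38 to 149.9. The fall was largest in nam8D at 6.35-fold and was 4.54-fold in hsh49::Q24P, 4.17-fold in WT and 3.75-fold in mud1D, with adjusted p (limma) at or below 5.22e-07. GSY2, described as the main synthase under nutrient limitation, was at 341.5, 295.0 and 334.5 TPM in WT log phase and 220.6, 250.5 and 197.8 in WT starvation. Its WT difference of -0.54 (95% interval -1.12 to 0.04, adjusted p = 0.0817, limma) did not pass, although with medians centred it did (-1.02). GSY2 fell in the mutants, by 1.16, 1.79 and 1.06 on the log2 scale in hsh49::Q24P, nam8D and mud1D. The calls in hsh49::Q24P and mud1D were not robust to single libraries: without hsh49::Q24P starvation replicate 2 or log replicate 2 the value was -0.75 or just under the size required, and without mud1D starvation replicate 3 or log replicate 1 it was -0.82 or -0.91. The coding sequences of GSY1 and GSY2 are 73.3% identical over aligned bases with a longest shared run of 20 bases. How reads that match both were counted is not given in the sources used here.

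The branching enzyme gene GLC3 had 377.3, 314.3 and 364.7 TPM in WT log phase and 708.6, 772.6 and 621.8 in WT starvation, and these groups did not overlap. Leaving out WT log replicate 1, WT log replicate 3 or WT starvation replicate 3 brought its difference of 0.99 to 1.04, 1.02 or 1.07, past the size required. Starved hsh49::Q24P held 620.9, 252.8 and 618.7 TPM, starved nam8D 333.2, 402.4 and 447.0 and starved mud1D 685.7, 524.3 and 343.2. The log2 differences of 0.12, -0.39 and 0.28 in the mutants did not pass.

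GAC1 rose in all 4 genotypes. Its WT log libraries held 12.87, 12.59 and 15.11 TPM and its starved WT libraries 82.16, 100.7 and 85.78. Starved hsh49::Q24P libraries were at 43.52, 47.01 and 44.04 TPM, nam8D at 44.81, 44.66 and 46.47 and mud1D at 51.39, 49.78 and 50.64. Every starved library was above every log library, whose highest value was 22.61, and every starved mutant library was below every starved WT library. The log2 rises were 2.64 in WT and 1.44, 1.23 and 1.55 in hsh49::Q24P, nam8D and mud1D, with an SE of 0.152. The replicate of hsh49::Q24P that stood apart in other glycogen genes did not do so in GAC1. With spike-in scaling the rises in hsh49::Q24P, nam8D and mud1D were 0.36, 0.18 and 0.70 and were no longer called, and with medians centred the nam8D rise was 0.81.

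On the breakdown side, GPH1 was at 229.1, 197.7 and 244.5 TPM in WT log phase and 237.3, 268.4 and 210.4 in WT starvation, and these groups overlapped. The difference was 0.09 with a 95% interval of -0.60 to 0.79. In the mutants GPH1 fell, 2.97-fold in hsh49::Q24P, 3.29-fold in nam8D and 2.48-fold in mud1D (adjusted p = 0.000223, 8.82e-05 and 0.00122 by limma). Starved hsh49::Q24P libraries held 147.1, 47.92 and 141.1 TPM, nam8D 94.84, 94.85 and 108.6 and mud1D 160.5, 96.20 and 70.24. None of these 9 values reached the lowest log-phase value of any genotype, 197.7 TPM. Ordered by group mean, the 4 log groups and starved WT lay between 223.8 and 332.9 TPM, and starved hsh49::Q24P (112.0 ± 55.6), mud1D (109.0 ± 46.5) and nam8D (99.44 ± 7.95) followed, with neighbours among these 3 within their SDs.

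GDB1 rose in all 4 genotypes. It went from 19.96, 18.88 and 21.18 TPM to 126.4, 146.0 and 100.5 in WT, and no log library of any genotype was above 30.93 TPM. Starved hsh49::Q24P held 167.4, 49.68 and 161.6 TPM, nam8D 50.81, 51.89 and 60.97 and mud1D 168.3, 79.38 and 48.51, so that 2 of the 3 groups had a replicate far from the others. The log2 rises were 2.56, 2.12, 1.00 and 1.85 in WT, hsh49::Q24P, nam8D and mud1D. The nam8D rise (adjusted p = 0.0196, limma) was not called with medians centred (0.58), quantile normalization (0.57) or a pseudocount of 5 (0.91), turned to -0.06 with spike-in scaling, and was 0.98, 0.93 and 0.92 without nam8D log replicate 1, log replicate 3 and starvation replicate 3. With spike-in scaling the mud1D rise was 0.99.

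Called members numbered 6 of 10 in each mutant, 3 higher and 3 lower. The background of calls in either direction was 42.6% for hsh49::Q24P, 37.7% for nam8D and 43.1% for mud1D. For higher calls it was 28.5%, 27.4% and 28.2%, and for lower calls 14.1%, 10.3% and 14.9%. The rises were GDB1, GLG2 and GAC1 and the falls were GSY1, GSY2 and GPH1 in each mutant. The median of the 10 differences was -0.03, -0.48 and 0.06, against medians of 0.39, 0.43 and 0.36 over all genes tested. When libraries were scaled by their spike-in RNAs, the medians over all genes became 0.20, -0.63, -0.55 and -0.43 for WT and the 3 mutants in the same order, and those of the 10 genes 0.62, -1.15, -1.56 and -0.83. With that scaling GLG1 was called lower in the 3 mutants (-1.41 in hsh49::Q24P and -1.32 in mud1D), and UGP1 likewise (-1.30, -1.90 and -1.04). GLC3 and PGM2 were called lower in nam8D (-1.48 and -1.61), while the GLG2 rise in nam8D was 0.90. Of the 6449 genes tested, 2373, 2161 and 2030 were then called lower in hsh49::Q24P, nam8D and mud1D.

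**Figure D2:**
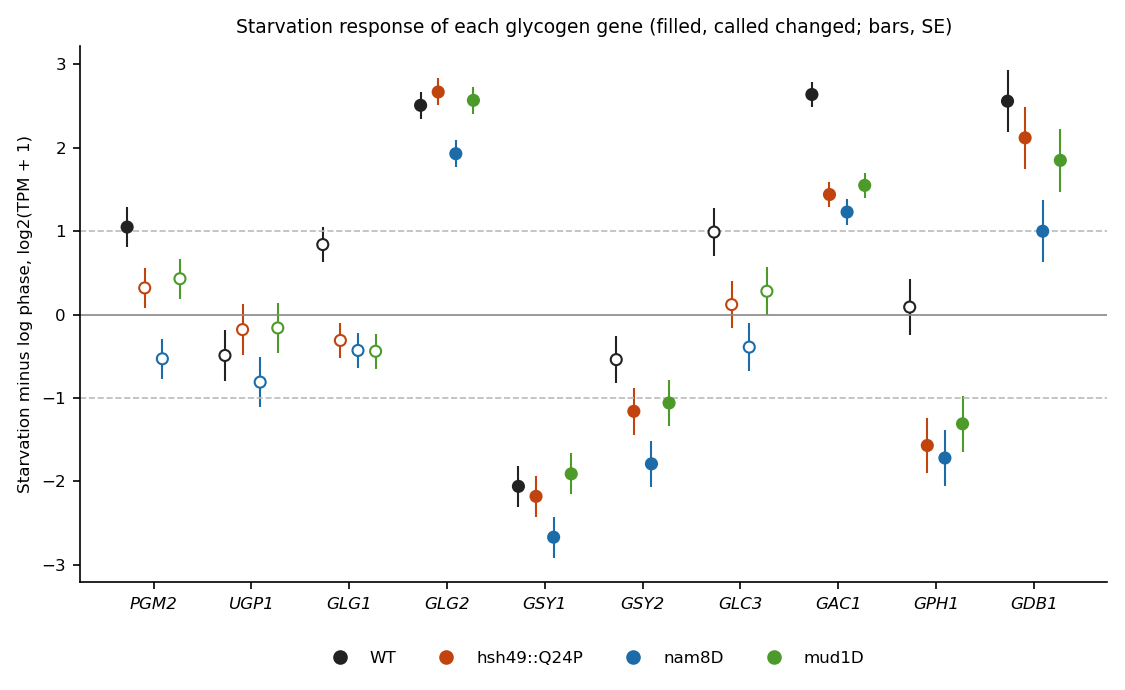
Starvation minus log phase on the log2(TPM + 1) scale (y axis) for each gene (x axis) and genotype (colour), with SE bars from limma; filled points were called. GPH1 lies at 0.09 in WT and between -1.72 and -1.31 in the mutants, and GAC1 at 2.64 in WT and between 1.23 and 1.55 in the mutants.

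In log phase limma called no glycogen gene in any mutant against WT. The background of calls was 0.109% for hsh49::Q24P, 0.124% for nam8D and 0.310% for mud1D. At an unadjusted p under 0.05 the counts were 0, 3 and 0, against 358, 608 and 534 of the 6449 genes tested. All 10 genes had a positive difference in each mutant, from 0.18 to 0.42 in hsh49::Q24P, 0.07 to 0.58 in nam8D and 0.10 to 0.28 in mud1D, except that GSY2 (-0.03) and PGM2 (-0.02) in mud1D turned negative without mud1D log replicate 1. The medians of the 10 differences were 0.24, 0.49 and 0.21, against 0.03, -0.00 and 0.03 over all genes. The 3 comparisons use the same WT libraries. In some libraries the genes also moved together, so 10 equal signs are not 10 separate observations. All 10 lay below their group mean in hsh49::Q24P log replicate 1 and in mud1D log replicate 3. The 3 in nam8D at an unadjusted p under 0.05 were GSY1 (0.58, 95% interval 0.06 to 1.10), PGM2 (0.53, 0.03 to 1.04) and GAC1 (0.45, 0.13 to 0.77). No difference between mutants in log phase was called either, against backgrounds of 0.124%, 0.279% and 0.186% for hsh49::Q24P against nam8D, hsh49::Q24P against mud1D and nam8D against mud1D, and none had an unadjusted p under 0.05.

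In starvation GPH1 was lower than in WT in each mutant, by 2.36-fold in hsh49::Q24P, 2.38-fold in nam8D and 2.30-fold in mud1D (adjusted p = 0.0033, 0.00308 and 0.00384 by limma). GLG1 was lower by 0.93, 0.91 and 1.13 on the log2 scale, past the size required in mud1D alone, and GAC1 by 0.98, 0.96 and 0.81, passing the adjusted threshold but not the size. The 3 comparisons share the WT libraries and are not independent. Starved nam8D also had lower GDB1 (-1.16, adjusted p = 0.0117, limma) and PGM2 (-1.04, adjusted p = 0.000936, limma). GLC3, GSY2 and GLG2 in nam8D passed with differences of -0.83, -0.68 and -0.51. GSY1 and UGP1 passed in no mutant, with differences of -0.02 to 0.43 and 0.05 to 0.51. The called genes numbered 1 for hsh49::Q24P, 3 for nam8D and 2 for mud1D, all lower, against backgrounds of lower calls of 7.41%, 7.86% and 8.87%, and of calls in either direction of 11.4%, 12.2% and 13.4%. The medians of the 10 differences were -0.42, -0.87 and -0.49, against -0.09, -0.03 and -0.10 over all genes. With spike-in scaling the called genes numbered 4 in hsh49::Q24P and 7 in nam8D, and the median over all genes was -0.48 and -0.42 there. Of the 6449 genes tested, 1122 and 1072 were then called lower in these mutants.

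Part of this rested on single libraries. Without hsh49::Q24P starvation replicate 2 the GPH1 difference from WT in hsh49::Q24P was -0.72 (adjusted p = 0.0272, limma). Without mud1D starvation replicate 3 those of GPH1 and GLG1 in mud1D were -0.93 and -0.92, and no member was then called in mud1D. PGM2 in nam8D was -0.97 without WT starvation replicate 2, -0.87 without nam8D starvation replicate 1 and -0.98 with medians centred. In the other direction, GLG1 in hsh49::Q24P reached -1.11 and -1.05 without starvation replicates 1 and 3 of that genotype. GAC1 in hsh49::Q24P reached -1.04 and -1.01 without WT starvation replicate 1 and hsh49::Q24P starvation replicate 2 and just passed the size required without WT starvation replicate 3, and in nam8D -1.02 without WT starvation replicate 1. GPH1 in nam8D, whose 3 libraries lay within 94.84 to 108.6 TPM, was called in each of the 24 fits that left out a library and each of the 11 other settings.

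Whether a mutant responded to starvation as WT did was tested with an interaction term. For GPH1 the mutant response minus that of WT was -1.66 ± 0.47, -1.81 ± 0.47 and -1.40 ± 0.47 (log2 ± SE; adjusted p = 0.00717, 0.00379 and 0.0182 by limma) in hsh49::Q24P, nam8D and mud1D. For GLG1 it was -1.15, -1.27 and -1.28 (SE 0.30) and for GAC1 -1.20, -1.41 and -1.09 (SE 0.215). In nam8D the responses of GSY2, GLC3, GDB1 and PGM2 were lower as well, with values of -1.25, -1.38, -1.56 and -1.58, and that of GLG2 was -0.58, under the size required. The called genes numbered 3, 7 and 3, all lower, against backgrounds of lower calls of 7.88%, 8.76% and 9.57% and of either direction of 11.2%, 13.0% and 13.6%. The medians of the 10 interaction values were -0.68, -1.33 and -0.67, against -0.11, -0.02 and -0.12 over all genes. GSY1 and UGP1 did not pass in any mutant with this scaling. With spike-in scaling the called genes numbered 7, 10 and 7, all lower. Of the 6449 genes tested, 2587, 2141 and 1838 were then called lower. The medians of the members were -1.49, -2.11 and -1.24, against -0.87, -0.75 and -0.66 over all genes. The 10 called in nam8D then included GSY1 (-1.38, adjusted p = 0.00787, limma), UGP1 (-1.11, adjusted p = 0.0456, limma) and GLG2 (-1.33).

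Among these interaction terms, GLG1 in hsh49::Q24P was -0.85 without hsh49::Q24P starvation replicate 2, and GPH1 in mud1D was -1.13 at adjusted p = 0.057 (limma) without mud1D starvation replicate 3. GDB1 in nam8D was -1.44 at adjusted p = 0.0501 (limma) without WT starvation replicate 2, and GAC1 in mud1D was just under the size required without the same library and with quantile normalization. GAC1 in mud1D was also -0.95 with medians centred and -0.99 with a pseudocount of 5. GLC3 in hsh49::Q24P was past both thresholds without log replicate 1, starvation replicate 1 or starvation replicate 3 of that genotype (-1.07, -1.08 and -1.08), and GDB1 in mud1D without mud1D starvation replicate 1 (-1.19).

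Between 2 starved mutants limma called no glycogen gene, against backgrounds of 1.19% for hsh49::Q24P against nam8D, 0.264% for hsh49::Q24P against mud1D and 1.12% for nam8D against mud1D. At an unadjusted p under 0.05 the counts were 3, 0 and 2, against 2430, 758 and 2302 of the 6449 genes tested. GLG2 passed the adjusted threshold in both comparisons with nam8D, being 0.85 higher in hsh49::Q24P (adjusted p = 0.00127, limma) and 0.83 lower in nam8D than in mud1D (adjusted p = 0.00129, limma). GPH1 differed by 0.01 between hsh49::Q24P and nam8D, with a 95% interval of -0.68 to 0.71, which is too wide to show that the mutants were alike. GDB1 was 1.01 higher in hsh49::Q24P than in nam8D at adjusted p = 0.0556 (limma), and 1.58 higher without hsh49::Q24P starvation replicate 2. It was also called, at 1.01, without mud1D starvation replicate 1 or 3. Without mud1D starvation replicate 3, GDB1 and GLG2 were called lower in nam8D than in mud1D, at -1.07 for GDB1 and just past the size required for GLG2.

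Ratios of genes within a library do not depend on how libraries are scaled. TPM is a level per length, so these ratios compare levels between genes. The GSY2 to GSY1 ratio was close to even in log phase, at 0.887, 0.913, 0.878 and 0.800 in WT, hsh49::Q24P, nam8D and mud1D. In starved WT it was 2.57 ± 0.15 (SD, n = 3). Starved hsh49::Q24P had 1.87 ± 0.117, nam8D 1.63 ± 0.0892 and mud1D 1.44 ± 0.131. The lowest starved WT library, at 2.398, was above the highest starved mutant library, at 1.952. The hsh49::Q24P replicate that stood apart in level was also the lowest of its group in this ratio, at 1.738 against 1.952 and 1.926.

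The ratio of GPH1 to the summed synthases, breakdown against chain growth, was 0.325, 0.361, 0.322 and 0.325 in the log groups. In starved WT it was 0.770 ± 0.0107, and in starved hsh49::Q24P, nam8D and mud1D it was 0.371 ± 0.0588, 0.445 ± 0.0219 and 0.363 ± 0.0435. The highest starved mutant value, 0.470, lay below the lowest starved WT value, 0.759. The ratio of GLG1 to GLG2 was 5.265 to 8.895 over the log libraries and 1.93 ± 0.177, 0.815 ± 0.235, 1.51 ± 0.517 and 0.697 ± 0.0413 in starved WT, hsh49::Q24P, nam8D and mud1D, where nam8D overlapped WT. The ratio of GPH1 to GDB1 went from 11.2 to 1.94 in WT, and was 0.906, 1.83 and 1.21 in the starved mutants. The ratio of GLC3 to the summed synthases went from 0.511 to 2.26 in WT and was 1.70, 1.76 and 1.75 in the starved mutants. An exact permutation test of 3 libraries against 3 cannot go below p = 0.1, so these ratios are given as values without a test.

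**Figure D3:**
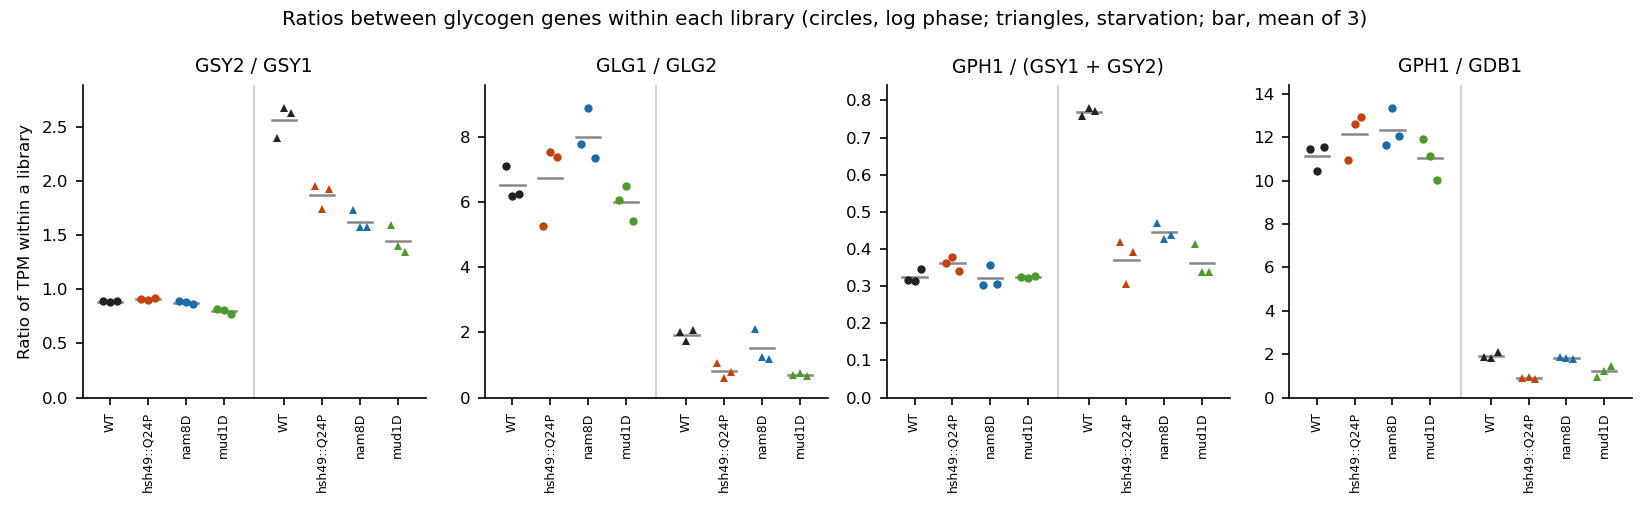
Ratios of TPM within each library (y axes) by genotype and growth state (x axis); each point is a library and each bar the mean of 3. Starved WT stands above all starved mutant libraries in GSY2 over GSY1 and in GPH1 over the summed synthases, and below every log library in GLG1 over GLG2 and GPH1 over GDB1.

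Replicates differed more in the glycogen genes than in the typical gene. The median SD between replicates on the log2 scale was 0.124 over the 10 genes and 0.0754 over all genes in WT log phase, 0.171 and 0.0883 in WT starvation, and 0.165 and 0.116 in nam8D starvation. It reached 0.663 against 0.190 in hsh49::Q24P starvation and 0.445 against 0.148 in mud1D starvation. Within the starved hsh49::Q24P replicate 2 the deviations of single genes ran from -1.14 to 0.07, and within mud1D starvation replicate 1 from 0.02 to 0.95. Most of the 10 genes lay on the same side of their group mean within such a library. What else differed between these cultures is not given in the labels, and its part in the results was not tested.

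**Figure D4:**
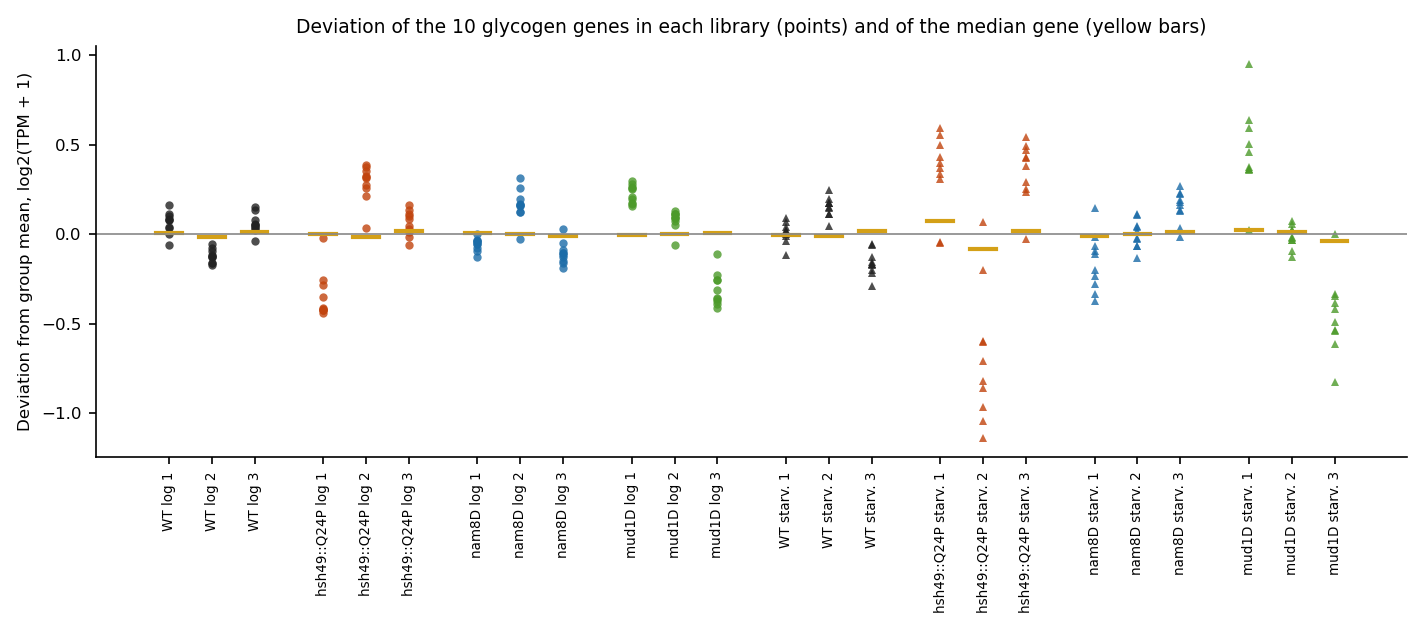
Deviation of each glycogen gene from its group mean on the log2(TPM + 1) scale (y axis) in each library (x axis), with yellow bars for the median gene tested. The starved hsh49::Q24P replicate 2 has a median of -0.77 over the 10 genes, and the median gene there lies at -0.081.

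Related genes were taken from 4 lists written by hand. Of the 5 genes for Glc7 and its glycogen-related partners, 4 rose in starved WT, among them PIG1 (1.78), PIG2 (2.24) and GIP2 (2.72). In each mutant 3 were called higher. All 5 passed the adjusted threshold as higher in each of the 4 genotypes, and the others were under the size required. Over all genes tested, 26.2%, 28.5%, 27.4% and 28.2% were called higher in WT, hsh49::Q24P, nam8D and mud1D. Called lower were 9.01%, 14.1%, 10.3% and 14.9%. These are the shares beside which the list counts of called genes stand. By the adjusted threshold alone, 3786, 3436, 3572 and 3369 of the 6449 genes tested were higher, in the same order. PIG1, the paralog of GAC1, was at 5.715 ± 0.508 TPM in WT log phase and 21.99 ± 1.85 in WT starvation, and at 10.68 ± 1.93, 10.86 ± 0.0989 and 10.26 ± 1.55 in starved hsh49::Q24P, nam8D and mud1D. Its response was lower than that of WT by 1.19, 1.09 and 1.17 on the log2 scale (adjusted p = 7.61e-06, 1.99e-05 and 7.28e-06 by limma). No other gene of the 5 was called in this interaction. In each mutant, 1 of the 5 passed the adjusted threshold as higher and 2 as lower. Over all 6449 genes tested, 1158, 1430 and 1272 passed as higher and 1808, 1627 and 1932 as lower. PIG2 was at 150.7 ± 11.5 TPM in starved WT and at 81.36, 93.29 and 90.23 in the starved mutants. GIP2, the paralog of PIG2, was at 91.33 ± 8.28 in starved WT and at 126.0, 91.37 and 134.7.

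Of the 23 kinases, cyclins and other regulators of glycogen metabolism, 8 were called higher and 1 lower in starved WT, which is near the shares over all genes. The counts were 8 and 0, 7 and 1, and 8 and 1 in hsh49::Q24P, nam8D and mud1D. At the adjusted threshold alone, 17 were higher and 3 lower in WT, against 3786 and 1428 of all 6449 genes tested. SIP2, a beta subunit of the Snf1 kinase, rose by 2.67 in WT and was lower in starved nam8D than in starved WT (-1.25, adjusted p = 4.01e-05, limma). No other regulator was called between a starved mutant and WT. Those passing the adjusted threshold numbered 9, 8 and 10 higher and 3, 6 and 6 lower in starved hsh49::Q24P, nam8D and mud1D. Over all 6449 genes tested these numbers were 1621, 1793 and 1777 higher and 2266, 2077 and 2387 lower. Of 7 genes of hexose phosphate metabolism, SGA1, a glucoamylase known from sporulation, rose in WT (3.33) and 3 fell, among them HXK2 (-2.92) and PGM1 (-2.53). The ratio of PGM2 to PGM1 went from 4.57 to 59.3 in WT. Counts in the mutants were 2 higher and 3 lower in hsh49::Q24P, 1 and 3 in nam8D and 2 and 3 in mud1D. Of 7 trehalose genes, which make or degrade the other reserve carbohydrate, 4 were called higher and 0 lower in WT, and 3 and 0, 3 and 1, and 3 and 0 in the mutants. At the adjusted threshold alone, 5 were higher and 0 lower in WT. The response of TPS2, trehalose 6-phosphate phosphatase, was lower than that of WT by 1.19, 1.46 and 1.21 in hsh49::Q24P, nam8D and mud1D. Trehalose genes called in this interaction numbered 1, 4 and 1, all lower, against 7.88%, 8.76% and 9.57% lower over all genes. By the adjusted threshold alone, 1 was higher in hsh49::Q24P and 1 in mud1D, against 1158 and 1272 of the 6449 genes tested.

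The 10 genes had no common profile over the 8 groups. The correlation of each gene with the mean of the 10 standardized profiles ran from 0.0238 for GSY1 to 0.901 for GLC3, with PGM2 at 0.89 and GLG1 at 0.784. Each gene is itself part of that mean, which raises its r. Outside the set, the genes with at least 10 TPM whose 8 group means were most like that mean profile were VPS35 (r = 0.936), YHL017W (0.933), TSL1 (0.92), ROM1 (0.906) and FLC2 (0.901). These genes were picked as the highest of all outside genes, so their r cannot be set against those of the members. All of these values describe 8 points that share their libraries.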

How the data were processed

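RNA was extracted with hot acid phenol, treated with DNase, selected for poly(A) and made into directional libraries, per the labels' protocols. Per the submitters' processing notes, FastQC 0.11.9, Trimmomatic 0.39 and STAR 2.7.9a were used; the annotation, the strand setting and the build used for counting are not given in the sources used here. The values analysed are TPM as deposited by the authors, 999639 to 999881 in total per library, which carry no depth. The table has 8009 feature lines, of which 7121 name a gene and 92 are spike-in RNAs; 4 lines were empty.

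Values were analysed as log2(TPM + 1), a scale that understates changes of low genes, with limma 3.58.1 in R 4.3.3. A linear model held the means of all 8 groups, used an intensity trend and had 16 residual degrees of freedom and 3.41 prior ones. The 6449 genes that reached a TPM of 1 in 3 or more libraries were tested. P-values were adjusted by Benjamini-Hochberg over these genes within each of 19 comparisons. A call required an adjusted p under 0.05 and a log2 difference of at least 1. P-values measure the spread between labelled biological replicates, pooled for each gene over all 8 groups. An SE or interval for 1 genotype therefore also carries the scatter of the others. The fit was tested on simulated data. In addition, 11 other settings and 24 fits that each left out a library were run. Promoter stretches and coding sequences came from RefSeq R64. The named genes were all members; at most 3 called genes of each related list; the 5 genes most like the members; and label checks. Members and lists were chosen with earlier results of these data known.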

Additional observations from a re-analysis of the deposited data

Results flagged for a closer look

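For each of the results below, the starvation response of a mutant differed from that of WT by limma's interaction test, given as the log2 response of the mutant minus that of WT. In hsh49::Q24P the values were -1.66 for GPH1, -1.15 for GLG1 and -1.20 for GAC1. In nam8D they were -1.25 for GSY2, -1.38 for GLC3, -1.81 for GPH1, -1.56 for GDB1, -1.27 for GLG1, -0.58 for GLG2, -1.58 for PGM2 and -1.41 for GAC1. In mud1D they were -1.40 for GPH1, -1.28 for GLG1 and -1.09 for GAC1. These results were listed by the adjusted threshold alone, which 3, 8 and 3 of the 10 genes passed in hsh49::Q24P, nam8D and mud1D, all lower. Over all 6449 genes tested, 1808, 1627 and 1932 passed as lower and 1158, 1430 and 1272 as higher. Passing is therefore common here and does not set the glycogen genes apart. The 3 genotypes were set against the same WT libraries. Groups of 3 libraries were too small for the test of a single sample far from the others.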

How the results depend on the processing

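Over 11 other settings and 24 fits without 1 library each, 6563 of 6650 differences of the 10 genes kept their side of the call, 51 became called, 35 lost the call and 1 reversed. Of the 6563, 108 that were not called in either fit changed sign. The reversal was GDB1 in nam8D, starvation against log phase, at -0.06 with spike-in scaling. Spike-in scaling accounted for 28 of the gained and 6 of the lost calls. With it the called genes numbered 4 in starved hsh49::Q24P and 7 in starved nam8D against WT. In the interactions they numbered 7 for hsh49::Q24P, 7 for mud1D and 10 for nam8D, and 1 was called between starved nam8D and mud1D. Over all 6449 genes tested, lower calls in these comparisons numbered 1122, 1072, 2587, 1838, 2141 and 52, in the same order. Median centring and quantile normalization each gave 1 between starved hsh49::Q24P and nam8D. Leaving out 1 library gave 1 to 2 called genes in starved hsh49::Q24P against WT, 0 to 2 in mud1D against WT, 0 to 1 between starved hsh49::Q24P and nam8D and 0 to 2 between starved nam8D and mud1D. The causes were not tested.

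The replicate block left 5, 6, 6 and 6 called genes in starvation against log phase in WT, hsh49::Q24P, nam8D and mud1D, and changed no call in any comparison. Same-numbered libraries of different groups had deviations that correlated at -0.671 to 0.463, over 0.1 in 19 of 84 pairs. Of 168 best matches, 53 had the same number, and the numbers were used only to name the libraries. Single pairs of groups differed. Between starved hsh49::Q24P and nam8D, same-numbered libraries correlated at 0.141 to 0.201 and the others at -0.22 to 0.0163. TPM gives no depth, so precision at low levels is unknown.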
